A study of Mus musculus with 16 samples.

Results

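Wild-type (WT) haploid spermatids were profiled with antibodies against H3K4me3 and H3K9me3, and these 4 libraries, 2 per mark, were taken from the 16 libraries of the series by their labels. They were compared with each other on the 19 autosomes, in bins of 10 kb and within 1 kb of 51229 gene starts, of which 20807 belong to protein-coding genes. The question was how far the 2 marks excluded each other in the same cells, where both were found, and whether the nucleosomal fragments they released differed in length. The 2 WT libraries made with control IgG served as the background.

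H3K4me3 is placed on nucleosomes beside active or poised promoters by the SET1 and MLL complexes, and CXXC1 guides the SET1 complexes to unmethylated CpG islands. H3K9me3 is placed by SUV39H enzymes at pericentromeric repeats and by SETDB1 at transposons and clustered gene families, and it is bound by HP1 proteins to form heterochromatin. In spermatids, which are the haploid products of meiosis, promoters of the genes for sperm assembly carry H3K4me3, and most histones are later exchanged for protamines.

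The WT animals were 2-month-old, non-mated males, siblings of the H2A.B triple knockout (KO) mice of the same study and without the deletions in the 3 H2A.B genes. The strain had been backcrossed to C57BL/6J. Live spermatids were sorted on their DNA content by Hoechst and propidium iodide, and no further treatment was given. Each replicate number was taken to stand for 1 animal, from which the libraries of both marks and of IgG were made. The study's methods name sibling pairs as replicates but do not tie each library to an animal. The pair of replicates is thus read as a pair of animals, and n = 2 holds throughout. An exact permutation test of 2 libraries against 2 cannot give a two-sided p below 0.333.

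Profiling was by AutoCUT&RUN, in which an antibody tethers micrococcal nuclease to the marked nucleosome, and the DNA cut out around it is sequenced from both ends. The lists held 4720819 and 5773629 fragments for H3K4me3, 10335237 and 8264488 for H3K9me3, and 889955 and 797505 for IgG. Many repeated the coordinates of another fragment: 83.4% and 62.2% of H3K4me3, 40.5% and 39.4% of H3K9me3, and 81.5% and 79.8% of IgG fragments. Counted once, 708411 and 2043088 H3K4me3 fragments, 3761745 and 3136799 H3K9me3 fragments, and 140669 and 140181 IgG fragments lay on the autosomes. Levels are given as fragments per 1000000 distinct autosomal fragments (FPM), so that 1 fragment was worth 1.41 and 0.489 FPM for H3K4me3, 0.266 and 0.319 for H3K9me3, and 7.11 and 7.13 for IgG. A mark was called present where both of its libraries held at least 5 fragments and at least 4 times the library mean. The latter is 3.34 FPM at a gene start and 16.7 FPM in a bin. At a gene start, 5 fragments of H3K4me3 replicate 1 are 7.06 FPM, so the minimum of 5 made the rule stricter for H3K4me3 than for H3K9me3. Counts of starts with each mark are compared at these unlike levels. Bins with at least 10 and gene starts with at least 5 IgG fragments over both IgG libraries are named as having many IgG fragments.

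The DNA before 5 gene starts shows promoters on which the marks were found. Each sequence is the 250 bases before the annotated start, read from GRCm38.p6 in the direction of the gene, with every CpG in capitals. Acrv1 (chr9:36692970-36693219, + strand), which encodes an acrosomal protein, carried H3K4me3 only. Ugt1a1 (chr1:88211709-88211958, + strand), a glucuronosyltransferase that conjugates bilirubin, and Zfp988 (chr4:147305424-147305673, + strand), a zinc finger gene, carried H3K9me3 only. Mroh2a (chr1:88226736-88226985, + strand) and Speer4c (chr5:15714272-15714521, - strand), of a spermatogenesis-associated family, carried both.
Acrv1: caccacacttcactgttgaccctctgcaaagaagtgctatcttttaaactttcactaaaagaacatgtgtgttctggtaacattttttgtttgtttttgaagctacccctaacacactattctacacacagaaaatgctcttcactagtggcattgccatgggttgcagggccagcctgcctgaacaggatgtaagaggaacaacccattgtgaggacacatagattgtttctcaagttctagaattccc
Ugt1a1: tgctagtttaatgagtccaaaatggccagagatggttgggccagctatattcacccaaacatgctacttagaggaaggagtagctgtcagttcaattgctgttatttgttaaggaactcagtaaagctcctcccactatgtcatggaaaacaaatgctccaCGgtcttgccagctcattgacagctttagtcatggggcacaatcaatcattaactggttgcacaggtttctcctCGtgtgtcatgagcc
Zfp988: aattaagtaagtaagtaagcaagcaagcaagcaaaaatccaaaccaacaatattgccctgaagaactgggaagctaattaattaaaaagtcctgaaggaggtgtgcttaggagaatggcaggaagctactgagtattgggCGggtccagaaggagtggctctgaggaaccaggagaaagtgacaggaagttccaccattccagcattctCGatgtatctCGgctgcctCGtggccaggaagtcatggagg
Mroh2a: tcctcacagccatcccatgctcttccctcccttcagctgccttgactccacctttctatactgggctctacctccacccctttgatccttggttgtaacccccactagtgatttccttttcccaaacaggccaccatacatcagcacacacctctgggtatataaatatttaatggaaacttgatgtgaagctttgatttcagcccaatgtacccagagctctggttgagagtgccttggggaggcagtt
Speer4c: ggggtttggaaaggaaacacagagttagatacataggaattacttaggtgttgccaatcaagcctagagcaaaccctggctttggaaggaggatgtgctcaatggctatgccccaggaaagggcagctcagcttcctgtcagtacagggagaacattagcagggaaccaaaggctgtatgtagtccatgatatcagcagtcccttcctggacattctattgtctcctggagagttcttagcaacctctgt
The stretches of Zfp988 and Ugt1a1 hold 4 and 2 CpGs, and those of Acrv1, Mroh2a and Speer4c hold 0. Over all starts with such a stretch, the median was 13 CpGs where H3K4me3 stood alone, 2 where H3K9me3 stood alone, 1 at starts with both marks, and 3 at starts with neither. The cyclic AMP response element TGACGTCA, read on both strands, lay in 2.78% of the stretches with H3K4me3 alone and in 1.07% of all 51218, and the letters TATAAA in 7.52% and 15.9%.

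H3K4me3 was gathered at gene starts more than H3K9me3 was. Without the bins of many IgG fragments, the H3K9me3 share there was close to that of IgG. Windows within 1 kb of a start cover 3.82% of the autosomes. They held 21.2% and 20.9% of the H3K4me3 fragments, 13.3% and 14.8% of the H3K9me3 fragments, and 11.99% and 9.72% of the IgG fragments. The widest 95% Wilson interval, that of IgG replicate 1, ran from 11.8% to 12.2%, and such intervals cover counting error only. With the bins of many IgG fragments left out, the mean share was 20.6% ± 0.0348 for H3K4me3, 4.21% ± 0.341 for H3K9me3, and 4.06% ± 0.546 for IgG (SD, n = 2). Both H3K4me3 libraries lay above both H3K9me3 libraries (exact permutation test, two-sided p = 0.333, the smallest possible).

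Few 10-kb bins carried both marks, although each mark was commoner in bins of the other than over all bins. Of 239357 bins with a fragment in any WT library, 11162 carried H3K4me3 (4.66%), 6406 carried H3K9me3 (2.68%), and 506 carried both (0.211%). The 506 were 4.53% of the bins with H3K4me3 and 7.90% of those with H3K9me3, and 59 of them had many IgG fragments. H3K9me3 was thus present in 4.53% of the bins with H3K4me3 and in 2.68% of all bins. Without the bins of many IgG fragments these were 4.05% and 2.63%, and outside chromosomes 5 and 14 they were 1.74% and 2.29%, where the order was turned around. These chromosomes held the most bins with both marks, 61 and 279, so leaving them out lowers the first share by the choice itself. In bins without many IgG fragments, H3K4me3 averaged 41.5 and 43.0 FPM where it was present, and H3K9me3 averaged 3.68 and 4.21 FPM there. Where H3K9me3 was present it averaged 43.0 and 37.6 FPM, and H3K4me3 averaged 11.5 and 7.99 FPM. Over all such bins H3K4me3 averaged 4.02 and 4.09 FPM and H3K9me3 3.28 and 3.19 FPM, so that neither mark fell below its own mean in the bins of the other. Bins with both marks are among these.

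Across all bins, Spearman's correlation of the mean levels of the marks was 0.302 (n = 239357 bins, which share libraries and depth). The 4 pairs of single libraries gave 0.131 to 0.294, against 0.543 between the H3K4me3 libraries and 0.652 between the H3K9me3 libraries. Over the bins with at least 10 fragments in the 4 libraries together it was -0.126. That choice of bins rests on the sum of both marks, and was made after the values were seen.

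**Figure D1:**
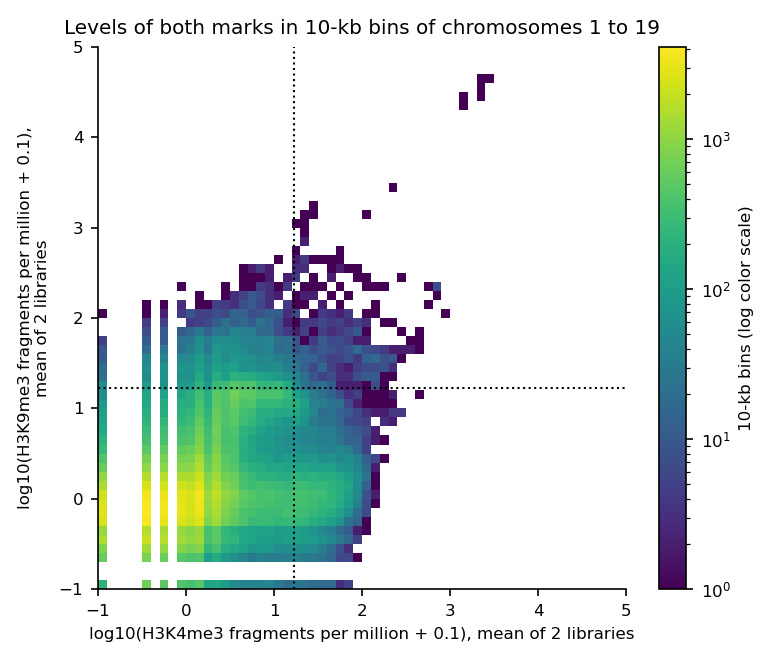
Each cell counts 10-kb bins by the log10 of the mean level of H3K4me3 (x axis) and of H3K9me3 (y axis), with 0.1 FPM added, and the dotted lines mark 16.7 FPM, which is 4 times the mean. Most bins lie near the origin, the 2 arms along the axes hold bins with 1 mark, and the isolated group at the upper right holds the bins with the most H3K9me3, which have many IgG fragments.

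Sequence makeup differed between the classes of bin. Bins with H3K4me3 alone had a median GC content of 45.2% and a CpG observed-to-expected ratio of 0.267, and repeats covered 25.9% of them. Bins with H3K9me3 alone had 40.8%, 0.169, and 62.5%, and bins with neither mark had 41.2%, 0.170, and 28.4%. Bins with both had the lowest CpG ratio, 0.110, with 41.995% GC and 43.95% repeats. H3K9me3 also ran in longer blocks. Of its 6406 bins, 59.1% lay in runs of 5 or more neighboring bins, the longest of them 2220 kb on chromosome 7 (chr7:7370001-9590000), whereas 1.74% of the H3K4me3 bins did, with a longest run of 90 kb on chromosome 17. Chromosome 7 held 24.2% and chromosome 14 held 14.6% of all bins with H3K9me3.

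A few bins held much of the H3K9me3. The 6 bins with the most H3K9me3 held 18.3% and 20.6% of the H3K9me3 fragments on the autosomes, and 13.4% and 10.5% of the IgG fragments, but 1.69% and 0.816% of the H3K4me3 fragments. All 6 had many IgG fragments, and the first (chr9:3000001-3010000) is 96.8% repeat, while the fifth (chr2:98660001-98670000) is 58% repeat. The 1280 bins with many IgG fragments together held 21.99% and 24.1% of the H3K9me3, 4.24% and 2.64% of the H3K4me3, and 31.1% and 19.3% of the IgG fragments. What part of the H3K9me3 signal there is background was not tested. These fragments enter the library size. With the bins of many IgG fragments left out of it, a choice made after the values were seen, the median log2 difference between the marks moved from 4.99 to 4.66 over the gene starts tested below and from 0.04 to -0.29 over the bins.

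At gene starts, H3K4me3 was present at 12497 (24.4%), H3K9me3 at 1746 (3.41%), and both at 294 (0.574%). H3K9me3 was present at 2.35% of the starts with H3K4me3, below its 3.41% over all starts. Among protein-coding genes the numbers were 8655, 488, and 176. Most H3K9me3 starts lay in DNA that occurs more than once: 1205 of the 1746 windows had another place in GRCm38 that matches over at least 1000 bp at 95% identity or more, called a near-identical copy here. Whether reads could be placed between such copies was not tested. Such copies were found for 6.65% of all windows, but for 67.4% with H3K9me3 alone and 77.2% with both marks. Among the starts with a copy, H3K9me3 was present at 39.5% of those with H3K4me3 and at 35.3% of all, and among protein-coding starts with a copy at 47.6% and 34.5%. Among protein-coding starts without a copy or many IgG fragments, 8321 of 19744 had H3K4me3, 127 had H3K9me3, and 18 had both, which is 0.216% of the former and 14.2% of the latter, against 0.643% and 42.1% over all of these starts.

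A limma-voom model over the 20112 starts with at least 10 fragments put 15566 higher in H3K4me3 (77.4%) and 2408 higher in H3K9me3 (12.0%), at a Benjamini-Hochberg adjusted p below 0.05. The median difference over all tested starts was 4.99 on the log2 scale. Without the minimum of 10 fragments it was 1.97, over 46262 starts, so its size depends on that filter. Under quantile scaling, which gives all libraries the same distribution of levels, the counts were 3653 and 4885, and the median was 0.77. The number of calls, but not the size of the difference, moved with the libraries used. Without replicate 1 of H3K4me3 the median difference was 5.10, but limma-voom gave 0 calls in either direction (5987 and 1538 at an unadjusted p below 0.05), without replicate 2 of H3K4me3 it gave 2567 and 746, and without replicate 1 or 2 of H3K9me3 it gave 1437 and 1390 starts higher in H3K9me3. Of 139436 bins tested in the same way, 30511 were higher in H3K4me3 (21.9%) and 18698 in H3K9me3 (13.4%). Without replicate 2 of H3K4me3 the counts were 21916 and 1674, without each of the other 3 libraries they were 19729 to 23911 and 12556 to 18051, and with every deposited fragment, repeats included, they were 33 and 64. When fragments on X and Y, which made up more of the H3K9me3 libraries, were included in the library size, the bins split into 41525 and 11807 and the median difference moved from 0.04 to 0.63.

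Around the 8303 protein-coding starts with H3K4me3 alone, without a copy or many IgG fragments, H3K4me3 rose from 2.98 and 3.83 times the library mean at 4 to 5 kb to 19.3 and 20.1 times within 1 kb. H3K9me3 stayed at 0.261 and 0.327 times its mean within 1 kb, against 0.245 and 0.386 at 4 to 5 kb. IgG stood at 1.61 and 0.918 times within 1 kb and at 0.646 and 0.744 farther out, so that a lower peak at the start was also seen without an antibody against a histone mark. Of the 1452 starts of any gene type with H3K9me3 alone, 470 had neither a copy nor many IgG fragments. Over these 470, H3K9me3 was 9.45 and 8.66 times the mean within 1 kb and still 6.32 and 5.95 times at 4 to 5 kb. H3K4me3 was 1.77 and 0.933 times its mean there. These levels chose the starts and are descriptions only.

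**Figure D2:**
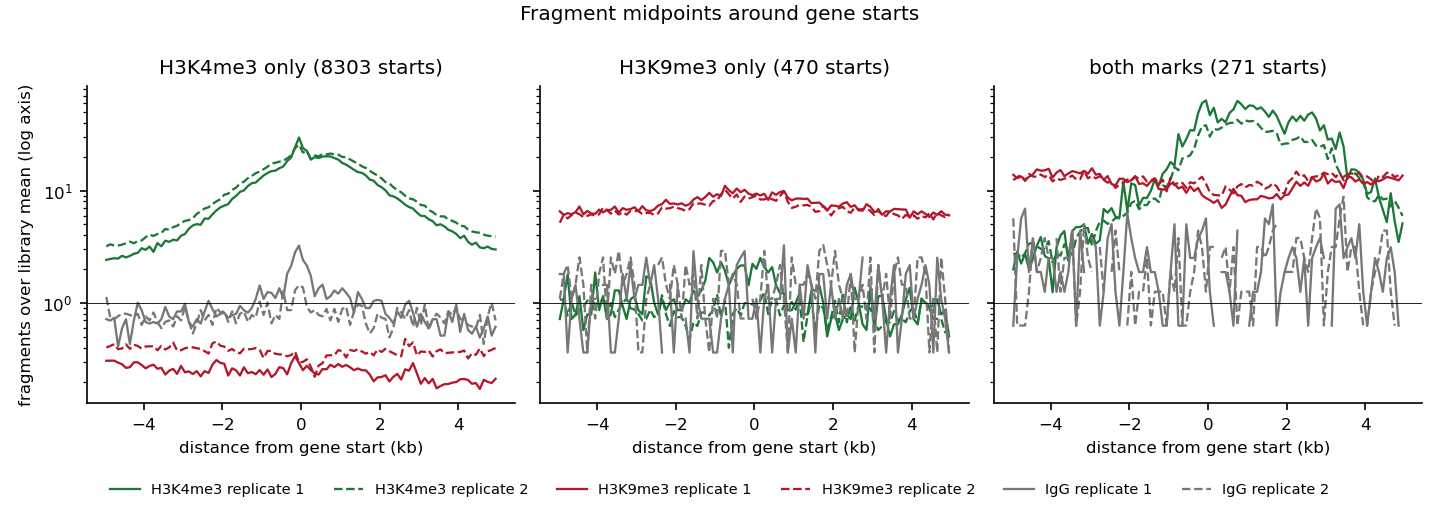
Mean level of fragment midpoints in 100-bp steps (y axis, times the library mean, log axis) by distance from the gene start (x axis, kb, in the direction of the gene) for 3 classes of start. H3K4me3 peaks at the start and falls within 5 kb, H3K9me3 is broad, and over the 271 starts with both marks H3K4me3 rises where H3K9me3 dips. The level of H3K9me3 within 1 kb was 0.703 and 0.823 of that at 4 to 5 kb over these 271. For the 48 of them without a copy, not drawn here, it was 0.989 and 0.907.

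Genes of sperm assembly carried H3K4me3. Over all protein-coding starts, 41.6% had H3K4me3 and 2.35% had H3K9me3, and of the 11758 tested, 10420 were higher in H3K4me3 and 580 in H3K9me3, beside which the counts of the lists are to be read. Of 30 spermatid genes, 28 had H3K4me3 (93.3%, against 41.6%). With H3K9me3 there were 0, which is close to the 2.35% of all protein-coding starts for so short a list. All 29 tested were higher in H3K4me3, with a median log2 difference of 5.67. Smcp, which encodes a cysteine-rich protein of the sperm mitochondrial capsule, had the highest mean. It held 50.8 and 28.4 FPM of H3K4me3 and 0.532 and 0.319 FPM of H3K9me3, a log2 difference of 5.998 ± 0.589 (SE; limma-voom adjusted p = 1.93e-05). Both H3K4me3 libraries were far above both H3K9me3 libraries, with 0 and 7.13 FPM of IgG. Acrv1 held 22.6 and 22.03 FPM of H3K4me3, and no fragment of H3K9me3 or IgG was found.

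The protamine genes stood lower at their annotated outermost starts. On chromosome 16, Prm1 is annotated from 10796326 to 10805839 and Prm2 from 10791380 to 10796134, both on the - strand. Tnp2 has a shorter span, from 10787936 to 10788660. The Prm1 and Prm2 windows lay around 10805839 and 10796134 only. H3K4me3 at any start farther inside these genes was not tested. Prm2 had 4.23 and 11.7 FPM of H3K4me3 against 0.266 and 0.319 of H3K9me3, and was higher in H3K4me3 (adjusted p = 1.53e-04) without passing the threshold for presence in replicate 1. Prm1 had 2.82 and 1.47 FPM of H3K4me3 and no fragment of H3K9me3, and had too few fragments to test. The transition protein genes Tnp1, with 11.3 and 11.7 FPM, and Tnp2, with 11.3 and 17.1 FPM, both carried H3K4me3.

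Meiotic genes also had H3K4me3. It was present at 20 of 26 (76.9%), among them Syce3 of the synaptonemal complex (18.4 and 30.3 FPM) and Hormad1 (16.9 and 16.6 FPM), and all 21 tested were higher in H3K4me3. Spo11, which makes the meiotic double-strand breaks, had 1.41 and 0.979 FPM and Stra8 had 1.41 and 0.489 FPM, and neither was tested. Of 75 ribosomal protein genes, 67 had H3K4me3 (89.3%) and 0 had H3K9me3. Of 67 clustered histone genes, 35 had H3K4me3 (52.2%) and 51 of the 58 tested were higher in it, a share close to that of all protein-coding starts tested.

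Of 20 genes of the somatic cells of the testis, 0 passed the threshold for either mark. The 2 with enough fragments to test, Wt1 and Sox9, had adjusted p = 0.0614 and 0.191 by limma-voom. Sox9, the Sertoli cell transcription factor, had 0 and 0.979 FPM of H3K4me3, and Cyp17a1 of Leydig cells had no fragment in any of the 4 libraries. Of 13 spermatogonial genes, 7 of the 8 tested were higher in H3K4me3, with a median log2 difference of 3.79, and 0 in H3K9me3. That share is close to the 10420 of 11758 protein-coding starts tested. Nanos3, 1 of the 7, had adjusted p = 0.0459 by limma-voom and 0.0717 with the replicate number as a block. Among the tested genes, Sohlh1 had 4.23 and 6.85 FPM of H3K4me3, and Kit, the receptor of stem cell factor, had 5.65 and 2.45 FPM. The threshold for presence was passed by 2, namely Etv5 (11.3 and 4.89 FPM) and Lin28a. Lin28a had 50.8 FPM in replicate 1 but 5.87 in replicate 2, so that its libraries differed widely. Gfra1 was the tested member that was not called (limma-voom adjusted p = 0.253). Zbtb16, Sall4 and Nanos2 had no fragment of H3K4me3, and Dmrt1 had 9.88 and 0 FPM, and these were not tested.

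Among the genes that write, erase and read the marks, H3K4me3 was present at 19 of 27 (70.4%), and 23 of the 24 tested were higher in H3K4me3 and 0 in H3K9me3. Cbx5, which encodes the heterochromatin protein HP1 alpha, was highest with 33.9 and 37.2 FPM, and Kmt2b and Cxxc1, of the H3K4 methylation machinery, had 19.8 and 18.1 FPM and 16.9 and 21.5 FPM. Suv39h2, the testis-enriched H3K9 methyltransferase, had 14.1 and 28.9 FPM. Trim28, the corepressor that brings SETDB1 to its targets, was the 1 tested gene that was not called at its annotated outermost start, with 0 and 1.47 FPM of H3K4me3 and 2.39 and 2.55 FPM of H3K9me3 (adjusted p = 0.152).

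Among protein-coding starts called higher in H3K9me3 and with few IgG fragments, the 10 with the most H3K9me3 in their lower library were on chromosomes 1, 4, 5, and 12. Ugt1a1 led with 58.0 and 43.0 FPM of H3K9me3, against 2.82 and 0.979 FPM of H3K4me3 and no IgG fragment (log2 difference -4.64 ± 0.63, limma-voom adjusted p = 4.73e-05). The 2 H3K9me3 libraries lay well above both H3K4me3 libraries. Oasl1, a gene of the interferon response on chromosome 5, had 23.7 and 28.4 FPM of H3K9me3 and 0 and 0.489 FPM of H3K4me3. Ugt1a1, Zfp988 and Oasl1 were the members of these 10 without a near-identical copy. The other 7, Gm10553, Zfp978, Rex2, Zfp979, Zfp600, Sp110 and Gm10330, had 1 to 3 copies each, and their lower H3K9me3 library held 23.6 to 40.2 FPM.

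Zinc finger genes carried either mark at some starts and neither at many. Of 383 named Zfp, 189 had H3K4me3, 21 had H3K9me3, and 174 had neither. Of the 294 tested, 251 were higher in H3K4me3 and 24 in H3K9me3, where 10420 and 580 of the 11758 tested protein-coding starts were. The 21 were concentrated on chromosome 4, where 16 lay, all within the region chr4:145460001-147740000, and 11 of the 21 had a near-identical copy. Without a copy, Zfp988 held 27.6 and 33.8 FPM of H3K9me3, Zfp981 held 21.8 and 29.0 FPM, and Zfp985 held 9.30 and 19.1 FPM, against at most 1.47 FPM of H3K4me3. At the other end, Zfp78 on chromosome 7 held 36.7 and 34.3 FPM of H3K4me3 and 0.266 and 0.638 FPM of H3K9me3. Zfp993 was the single Zfp start with both marks, with 8.47 and 5.87 FPM of H3K4me3 and 9.57 and 15.6 FPM of H3K9me3, and it has 3 copies.

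The 2 receptor families of the nose differed in H3K9me3 and also in near-identical copies. Of 326 vomeronasal receptor genes, which detect pheromones, 79 had H3K9me3 (24.2%) and 2 had H3K4me3, against 2.35% and 41.6% of protein-coding starts, and 120 of the 152 tested were higher in H3K9me3 and 8 in H3K4me3. The 79 lay mostly on chromosome 7, with 74 there, and 69 had a near-identical copy. Vmn1r158 held 10.1 and 13.4 FPM of H3K9me3 and has 7 copies. Among 1087 olfactory receptor genes, which are far more numerous, 12 had H3K9me3 (1.104%) and 14 had H3K4me3 (1.29%). A near-identical copy was found for 31 of the 1087 olfactory starts, against 107 of the 326 vomeronasal ones. Of the 12 olfactory starts with H3K9me3, 0 had a copy. What part the copies have in this contrast was not tested. Few had enough fragments to test, and 60 of the 103 tested were higher in H3K9me3 and 14 in H3K4me3. Olfr178 held 6.38 and 7.97 FPM of H3K9me3, whereas Olfr701 held 29.6 and 23.98 FPM of H3K4me3 and 0.266 and 0.638 FPM of H3K9me3. Of 110 keratin and keratin-associated genes, 10 had H3K9me3, all on chromosome 16, and 4 had H3K4me3. Of the 26 tested, 16 were higher in H3K9me3 and 5 in H3K4me3. Starts with little H3K4me3 reach the minimum of 10 fragments mainly through the deeper H3K9me3 libraries. The split of the tested starts in these families thus depends on that filter.

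The snoRNA starts with H3K9me3 were clustered as well. Of 1442 snoRNA starts, 200 had H3K9me3, and 197 of these lay within one cluster on chromosome 7 (chr7:59349614-59904848), in the imprinted region between Ube3a and Snrpn, where 203 snoRNA starts are annotated. There the median start held 11.2 and 8.61 FPM of H3K9me3 and 0 and 0.489 FPM of H3K4me3, and 189 of the 200 had near-identical copies, so that values of single genes are uncertain. Unprocessed pseudogenes had H3K9me3 at 355 of 1789 starts (19.8%), against 2.35% of protein-coding and 4.74% of processed pseudogene starts. Of the 355, 293 had a near-identical copy, as had 262 of the 423 processed pseudogene and 349 of the 488 protein-coding starts with H3K9me3. Long intergenic RNAs (lincRNA) had H3K4me3 at 21.8% and antisense genes at 29.4% of their starts.

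Imprinted genes had H3K4me3 about as often as all protein-coding genes. Of 34, 14 had H3K4me3 (41.2%, against 41.6%) and 0 had H3K9me3, where 2.35% of all protein-coding starts had it, and 15 of the 18 tested were higher in H3K4me3. Kcnq1ot1, the paternally expressed antisense RNA, held 18.4 and 23.5 FPM of H3K4me3 and no fragment of H3K9me3, and Nespas held 14.1 and 16.6 FPM. Peg3 held 9.88 and 10.3 FPM of H3K4me3 and 0.266 and 1.59 FPM of H3K9me3. Magel2 was the single member higher in H3K9me3, with 1.33 and 2.23 FPM against 0 and 0 (adjusted p = 0.0278), below the threshold for presence. Of 39 Hox genes, which pattern the body axis, 3 had H3K4me3 and 0 had H3K9me3, and 11 of the 28 tested were higher in H3K4me3 and 3 in H3K9me3, with a median log2 difference of 0.56 against 4.99 over all tested starts. The calls of Hoxc13 and Hoxc9 changed with the replicate number as a block. Hox starts had a median of 1.41 and 0.489 FPM of H3K4me3 and 1.06 and 0.956 FPM of H3K9me3. Of the 42 beta-defensin genes, 1 had each mark.

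**Figure D3:**
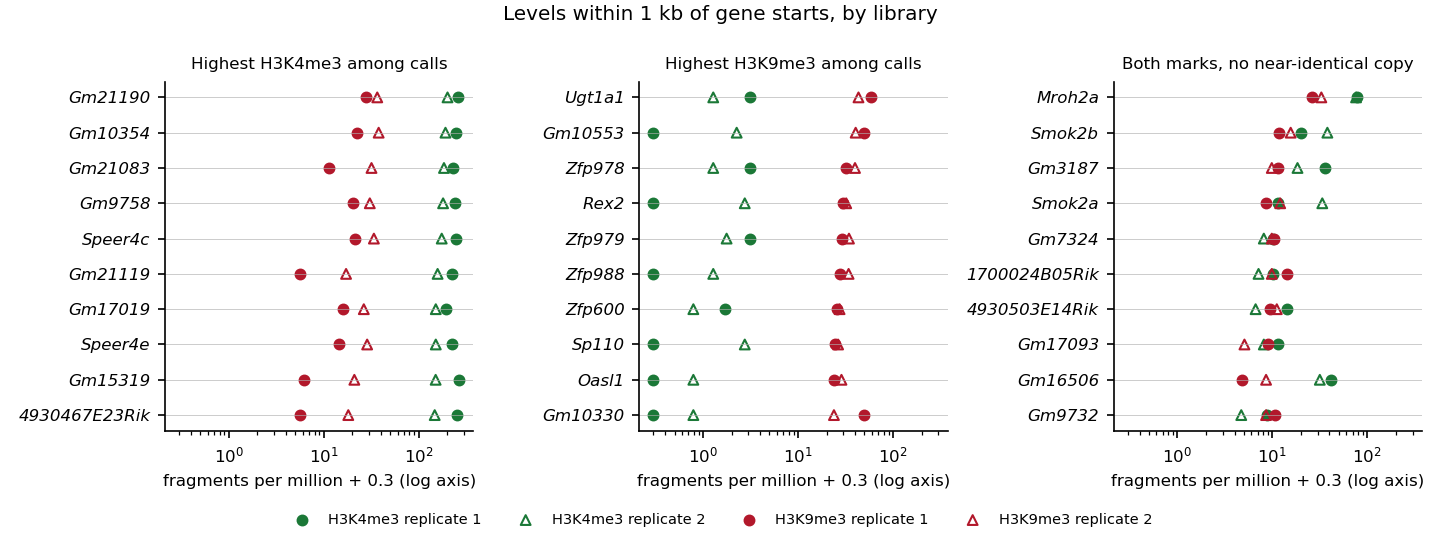
Levels within 1 kb of the start (x axis, FPM with 0.3 added, log axis) in the 4 libraries for the 10 protein-coding starts with the highest H3K4me3 and the highest H3K9me3 among called starts and for 10 starts with both marks and no copy. Green marks are H3K4me3 and red marks H3K9me3, with circles for replicate 1 and triangles for replicate 2. The marks separate in the left and middle panels and lie closer or overlap in the right one. All 10 starts of the left panel also passed the threshold for H3K9me3, so that each carried both marks.

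Starts with both marks were few and gathered in multicopy regions. Of the 294, 154 lay on chromosome 14, and 227 had a near-identical copy. Of the 506 bins with both marks, 279 were on chromosome 14 (55.1%) and 61 on chromosome 5. One region of chromosome 14 (chr14:3020001-7650000) held 162 of the bins and another (chr14:41230001-44730000) held 100. Both are filled with predicted genes such as Gm3012 and Gm7945, and 62 of the 63 starts with both marks in the first and 76 of the 85 in the second had copies. The zinc finger cluster on chromosome 4 (chr4:145460001-147740000) held 33 bins, and the Speer region of chromosome 5 (chr5:14900001-15720000) held 28, of which 18 had many IgG fragments. Outside chromosomes 5 and 14, 166 of 212428 bins had both marks (0.0781%). Whether marks on different copies were counted at one place was not tested.

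In the Speer family, all 10 members had H3K4me3 and 5 had both marks, and all were higher in H3K4me3. Speer4c held 247 and 175 FPM of H3K4me3 and 21.001 and 33.5 FPM of H3K9me3, with 7.11 and 14.3 FPM of IgG. Speer4e, with 222 and 151 FPM of H3K4me3 and 14.4 and 28.4 FPM of H3K9me3, and Speer4d, with 181 and 120.9 FPM and 18.6 and 25.2 FPM, were alike, and each of the 3 has 9 copies. Speer4f1, without a copy, held 42.3 and 48.0 FPM of H3K4me3 and 3.99 and 7.33 FPM of H3K9me3. Speer2 on chromosome 16 and Speer3 had H3K4me3 alone, at 15.5 and 28.4 FPM and at 28.2 and 30.3 FPM. Among called protein-coding starts without many IgG fragments, the 10 with the highest H3K4me3 were genes of the Speer region on chromosome 5 (Gm21190, Gm10354, Gm21083, Gm9758, Speer4c, Gm17019, and Speer4e) and 3 genes of a second multicopy region on chromosome 8 (Gm21119, Gm15319, and 4930467E23Rik). Their lower H3K4me3 library held 147 to 201 FPM, their H3K9me3 5.32 to 37.6 FPM, and each has 4 or 9 copies. All 10 passed the threshold for both marks.

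By the smallest fold over the mean in the 4 libraries, the 10 leading starts with both marks were Gm21190, Mroh2a, Gm10354, Speer4c, Gm21149, Gm9758, Speer4d, 4930572O03Rik, Gm17027, and Gm7929, and 9 of them have 7 or 9 copies. Gm7929 on chromosome 14 held 19.8 and 22.5 FPM of H3K4me3 and 21.5 and 17.2 FPM of H3K9me3, so that the marks overlapped, and no IgG fragment was found there.

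Within bins that held both marks, their highest levels lay in different tiles. Each of the 447 such bins without many IgG fragments was divided into 10 tiles of 1 kb. The tile with the most H3K4me3 was the tile with the most H3K9me3 in 13 of them (2.91%), the median distance between the 2 was 5 kb, and it was 4 kb or more in 337 (75.4%). The median Spearman correlation of the marks over the 10 tiles of a bin was -0.47 and was negative in 368 bins, whereas it was 0.84 between the H3K4me3 libraries and 0.52 between the H3K9me3 libraries. In the tile with the most H3K4me3, H3K4me3 had a median of 60.8 and 43.3 times its library mean and H3K9me3 5.73 and 7.63 times. In the tile with the most H3K9me3, H3K9me3 had 16.5 and 15.3 times and H3K4me3 3.38 and 2.34 times. The choice of the highest tile fixes part of this contrast. Of the 447 bins, 386 (86.4%) held at least 1 tile that passed the threshold for both marks. In tiles of 1 kb, as at gene starts, the minimum of 5 fragments made this rule stricter for H3K4me3 than for H3K9me3. Over all 1-kb bins, H3K9me3 was present in 6.06% of those with H3K4me3 and in 3.30% of all, and in 5.38% and 3.27% without the 10-kb bins of many IgG fragments.

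Levels by distance were also taken around the 271 starts with both marks and few IgG fragments. H3K4me3 was 43.2 and 30.7 times its mean within 1 kb and 5.13 and 5.48 times at 4 to 5 kb. H3K9me3 was 9.35 and 10.98 times its mean within 1 kb and 13.3 and 13.3 times at 4 to 5 kb, a ratio of 0.703 and 0.823 of near to far. Around the 48 of these starts without a copy that ratio was 0.989 and 0.907, and around the 470 starts with H3K9me3 alone, none with a copy, it was 1.495 and 1.456. The rule on H3K4me3 divides these classes, so the ratios are a description.

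Among the 18 protein-coding starts with both marks that had neither a copy nor many IgG fragments, Mroh2a had the most H3K9me3. It held 77.6 and 75.9 FPM of H3K4me3 and 26.1 and 32.5 FPM of H3K9me3, with 7.11 and 14.3 FPM, or 1 and 2 fragments, of IgG, and was higher in H3K4me3 by 1.40 ± 0.34 (adjusted p = 0.00246). Smok2b, a sperm motility kinase gene on chromosome 17, held 19.8 and 37.7 FPM of H3K4me3 and 11.4 and 15.3 FPM of H3K9me3, and its neighbor Smok2a held 11.3 and 33.3 FPM and 8.24 and 11.8 FPM. Clcn4, a chloride transporter gene on chromosome 7, held 12.7 and 15.2 FPM of H3K4me3 and 3.99 and 4.46 FPM of H3K9me3. The developmental gene Msx1 held 7.06 and 5.38 FPM and 3.72 and 6.69 FPM, with no IgG fragment, so that the libraries of the marks overlapped (adjusted p = 0.623). Hjurp and Trpm8, whose starts lie in the same window, held 78.3 to 86.1 FPM of H3K4me3 and 3.72 and 7.01 FPM of H3K9me3. Of the 18, 7 lay on chromosome 14, all within the pair of regions named above.

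The locus of Mroh2a is a single example, chosen after its values were seen. From 26 to 17 kb before its start, over the start of Dnajb3, H3K4me3 averaged 10.8 and 13.5 FPM per 1-kb tile and H3K9me3 0.148 and 0.0708 FPM. From 15 to 3 kb before it, after the start of Ugt1a1, this was turned around, with 0.706 and 0.979 FPM of H3K4me3 and 36.0 and 31.3 FPM of H3K9me3. Within 2 kb of the start of Mroh2a both were high, with 29.6 and 29.5 FPM of H3K4me3 and 12.9 and 14.5 FPM of H3K9me3. From 49 to 53 kb after it, at Hjurp and Trpm8, H3K4me3 averaged 31.8 and 26.8 FPM and H3K9me3 1.53 and 3.91 FPM. IgG averaged at most 5.35 FPM in these 4 stretches.

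**Figure D4:**
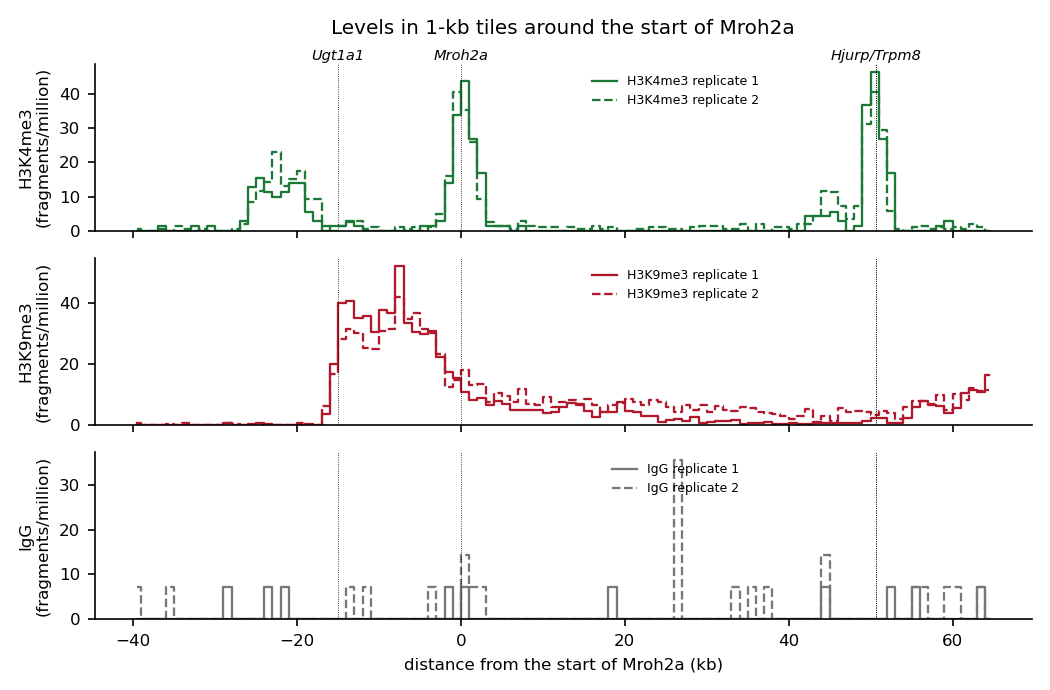
Levels of H3K4me3, H3K9me3 and IgG (y axes, FPM per 1-kb tile, separate scales) by distance from the start of Mroh2a (x axis, kb), with solid lines for replicate 1 and dashed lines for replicate 2. The block of H3K9me3 begins where the H3K4me3 before Ugt1a1 ends, falls across the H3K4me3 peak at Mroh2a, and is low at the peak of Hjurp and Trpm8.

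The ratio of short to nucleosome-sized fragments differed between the marks by less than the spread of the animals. Sub-nucleosomal fragments, of at most 120 bp, made up 23.2% and 22.8% of H3K4me3, 13.3% and 24.1% of H3K9me3, and 50.6% and 44.6% of IgG fragments. Mono-nucleosomal ones, from 150 to 250 bp, made up 49.6% and 46.9%, 57.4% and 38.8%, and 23.6% and 20.9%. The log2 ratio of sub- to mono-nucleosomal fragments was -1.10 and -1.04 for H3K4me3, -2.11 and -0.69 for H3K9me3, whereas IgG had 1.101 and 1.092. The H3K9me3 libraries thus lay on either side of both H3K4me3 libraries. The means were -1.07 ± 0.04 and -1.40 ± 1.003 (SD, n = 2), and their difference of 0.33 was smaller than the pooled SD of 0.71 (exact permutation test, two-sided p = 1). Within the animals the difference was 1.01 in replicate 1 and -0.35 in replicate 2. Counting every deposited fragment, repeats included, turned it to -0.58.

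The modal length above 120 and up to 250 bp was 187 and 170 bp for H3K4me3 and 171 bp in both H3K9me3 libraries, and the difference of 7.5 bp between the means was within the pooled SD of 8.5 bp (exact permutation test, p = 1). Without replicate 1 of H3K4me3 it was -1 bp. Medians were 188, 181, 186, and 185 bp. Fragments over 250 bp, which span more than 1 nucleosome, made up 22.3% and 23.0% of H3K4me3 and 24.3% and 30.1% of H3K9me3. The difference was -4.54 percentage points, or -1.99 and -7.10 within the animals (exact permutation test, p = 0.333, the smallest possible), and it rested on the bins with many IgG fragments. In those bins the median H3K9me3 fragment was 308 and 307 bp long. Without them, a comparison added after the values were seen, the shares were 21.8% and 22.8% of H3K4me3 and 15.3% and 21.6% of H3K9me3, and the difference turned to 3.82 percentage points, or 6.47 and 1.17 within the animals (exact permutation test, p = 0.333).

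Lengths also varied with place, in a way that differed by mark and animal. In bins with H3K9me3 alone, the log2 ratio of both H3K9me3 libraries, -2.55 and -1.06, was lower than in bins with neither mark, -2.37 and -0.74. That of IgG also fell there, by 0.79 and 0.41, against 0.18 and 0.32 for H3K9me3. In bins with H3K4me3 alone, that of H3K4me3 was -0.93 and -1.25, against -1.21 and -0.84 with neither mark, so that it was higher by 0.27 in replicate 1 and fell by 0.42 in replicate 2. In bins with many IgG fragments the ratio was higher than in bins with neither mark in all 6 libraries, by 0.27 to 1.88. Mono-nucleosomal fragments were rarer there in all 6, for H3K9me3 22.9% and 18.5% against 66.8% and 43.6%. Sub-nucleosomal ones were also rarer in H3K9me3 replicate 2 (19.6% against 26.2%) and both IgG libraries. They were commoner in H3K9me3 replicate 1 and both H3K4me3 libraries. At the 8303 starts with H3K4me3 alone, short fragments were commoner at the start itself. Within 200 bp of it the ratio of H3K4me3 was -0.17 and -0.80, against -0.66 and -1.22 from 200 to 1000 bp downstream, a mean shift of 0.45 ± 0.05 (SD, n = 2). The shift was 0.43 ± 0.15 for H3K9me3 and 0.56 ± 0.18 for IgG, so it was also seen with the other antibodies. H3K4me3 minus H3K9me3 was -0.04 in replicate 1 and 0.10 in replicate 2 (exact permutation test of the marks, p = 1). A difference this small cannot be resolved with n = 2.

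**Figure D5:**
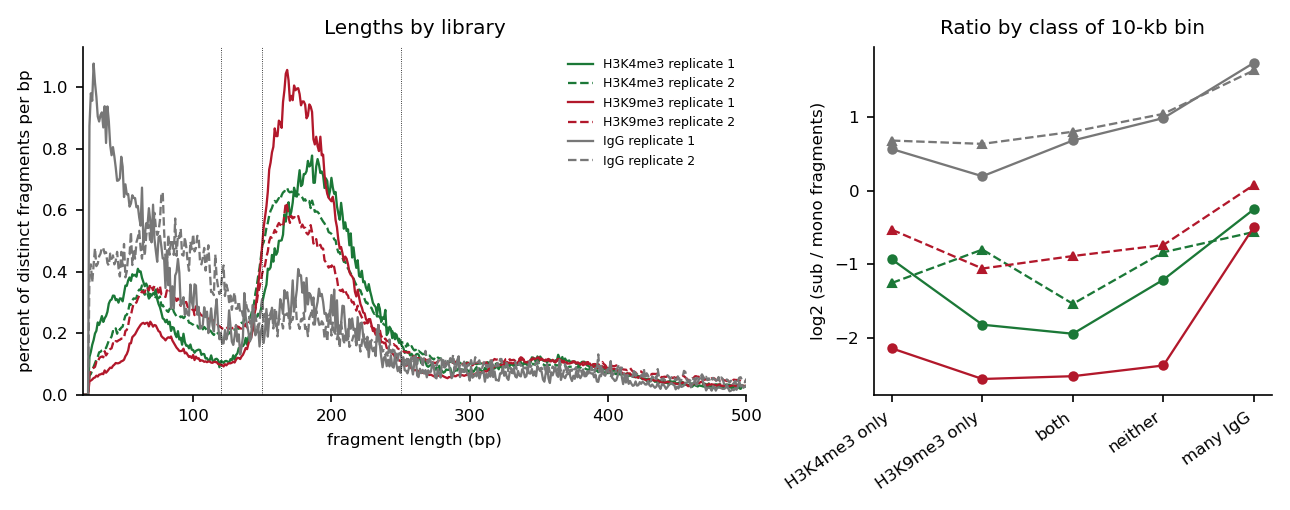
Left, percent of distinct fragments of each length (y axis, percent per bp; x axis, bp) in the 6 libraries, with dotted lines at the limits of the sub- and mono-nucleosomal classes. Right, log2 ratio of sub- to mono-nucleosomal fragments (y axis) by class of 10-kb bin (x axis), where IgG is highest, replicate 1 of H3K9me3 is lowest outside the bins with many IgG fragments, and bins with many IgG fragments have the highest ratio in every library.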

How the data were processed

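The deposited files are lists of paired-end fragments, 1 line per fragment, and the authors gave each fragment's position and length. Per the labels, reads were aligned with Bowtie2 version 2.3.4.3 to mm10 (GRCm38), whereas the study's methods name another version of it. No counts or scaling came with the lists. Although the study's methods describe removal of duplicates, lines with identical coordinates were present, and each set was counted once.

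Fragment midpoints on chromosomes 1 to 19 were counted in 10-kb bins and within 1 kb of the outermost start of each GENCODE vM21 gene, and were scaled to fragments per 1000000 distinct autosomal fragments. Features with at least 10 fragments over the 4 libraries were compared with limma-voom (limma 3.58.1, R 4.3.3), with Benjamini-Hochberg adjustment. The fit had no replicate block. The 4 libraries alone entered it. Near-identical copies were found with minimap2 2.31, and other values were computed with Python 3.11.15, NumPy 2.4.6, SciPy 1.17.1 and pandas 2.3.3. Sequences came from GRCm38.p6.

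Per the study's methods, pairs of WT and KO siblings served as replicates. Libraries with the same replicate number were taken to come from 1 WT animal, which the methods do not state. They share a code in their titles that differs between the numbers, and what it stands for was not given in the sources used here. The correlation of same-numbered deviations from the group means was 0.0509 over starts and 0.255 over bins.

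Named starts were the 10 highest called ones in each direction by the lower library of the higher mark, and the 10 with both marks that had the highest smallest fold over the library mean, all protein-coding and without many IgG fragments. Starts with both marks and no copy were added. For each gene list, the members with the highest mean of each mark and those needed to describe it were named. Clcn4, Msx1, Hjurp, Trpm8 and the locus around Mroh2a were chosen after their values were seen. The members and lists were chosen with earlier results of these data known. Alternatives were other scalings, filters, windows, bins and thresholds, every deposited fragment, equal depth, and leaving out each library. Tasor, of the genes that write and read the marks, was not analysed here because its symbol was not found in the annotation. One gene is not reported here.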

Additional observations from a re-analysis of the deposited data

Results flagged for a closer look

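The log2 ratio of sub- to mono-nucleosomal fragments differed between the marks in opposite directions in the 2 animals, with H3K4me3 minus H3K9me3 at 1.01 in replicate 1 and -0.35 in replicate 2. The modal length differed by 16 bp in replicate 1 and by -1 bp in replicate 2. With 1 library of each mark per animal, the difference between the animals was not tested.

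The sex chromosomes, which entered only alternatives for the library size and the fragment lengths, held 38.8% and 37.4% of the distinct H3K9me3 fragments, against 13.3% and 12.2% of IgG fragments and 9.68% and 6.33% of H3K4me3 fragments. Both H3K9me3 libraries lay above both IgG libraries.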

How the results depend on the processing

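Quantile scaling put 3653 gene starts higher in H3K4me3 and 4885 in H3K9me3, and a minimum of 50 fragments left 2109 and 221. That minimum left 13771 bins higher in H3K4me3. With every deposited fragment, repeats included, 1016 starts were higher in H3K9me3, 33 and 64 bins were called, 0.359% of starts and 280 bins had both marks, Spearman's correlation was 0.121, and the length ratio turned to -0.58. At equal depth 755 starts were higher in H3K9me3, 16012 and 8884 bins were called, and 0.260% of starts had both marks. A library size with X and Y left 11807 bins higher in H3K9me3. Bins of 5 kb gave 29873 higher in H3K9me3 and 787 with both marks, and bins of 50 kb gave 12959, 7073 and 217. A threshold of 2 times the mean put both marks at 0.873% of starts and in 1361 bins, against 0.574% and 506, and 8 times at 0.236% and in 211. Starts with both marks and no copy made up 0.131% of all starts, or 0.140% of the 47820 starts without a copy. Over bins with at least 10 fragments the correlation turned to -0.126. Without bins of many IgG fragments, an alternative added after the data were seen, the difference in fragments over 250 bp turned from -4.54 to 3.82 percentage points. The causes were not tested.

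Leaving out 1 library gave 0 to 13602 starts higher in H3K4me3 and 0 to 1437 in H3K9me3, 19729 to 23911 and 1674 to 18051 bins, both marks at 0.629% to 0.732% of starts and in 549 to 900 bins, correlations of 0.201 to 0.310, length ratios of -0.38 to 1.04, modal differences of -1 to 16 bp, and differences in fragments over 250 bp of -7.44 to -1.65 percentage points. The 900 bins and the 1674 bins came without replicate 2 of H3K4me3, which left 21916 bins higher in H3K4me3. The lone library of a mark was assumed to vary like those of the other.

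With the replicate number as a block, which pairs the marks by animal, 15559 and 2346 starts and 32234 and 22605 bins were called, and 17783 of the 17974 starts called without it remained. Among 268 genes of the lists and named starts, the block changed the call of 5 (Smok2b, Vmn2r69, Nanos3, Hoxc13, and Hoxc9). It cannot change the mean difference in the log2 ratio of sub- to mono-nucleosomal fragments, 0.33, because each replicate number has 1 library of each mark. Depth limits H3K4me3 replicate 1, with a mean of 2.96 fragments in a bin, and IgG, with 0.588 and 0.586.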
